A study of Mus musculus with 2 samples.

Results

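The 40 genes described here encode the acidifying pump of the lysosome (the V-ATPase), proteins of the lysosomal membrane, soluble lysosomal proteins and the MiT/TFE transcription factors. They were taken from a fixed list of mouse symbols, with cathepsins left out, and all 40 were found among the 22060 genes of the count table. By class they are 15 pump genes, 7 membrane protein genes, 13 hydrolases, 2 soluble lipid-handling proteins (Npc2 and Psap) and 3 transcription factors. Both libraries are of macrophages grown from the marrow of C57BL/6 mice at 8 weeks of age. M-CSF, which drives progenitors to the macrophage fate, was given over 7 days, and no further treatment followed (0 h). The library called WT is from wild-type cells, and the library called T403A is from cells with the T403A substitution (alanine in place of threonine) in STAT2. STAT2 is part of the transcription factor complex that responds to type I interferon. The labels do not say whether a library was made from 1 animal or from a pool.

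The V-ATPase is a rotary proton pump. Its V1 sector, on the cytosolic side, splits ATP, and its V0 sector, in the membrane, carries protons into the lumen. The acid lumen activates hydrolases that break down proteins, glycans, glycosaminoglycans and lipids. Membrane proteins such as the LAMPs line the organelle, and other membrane proteins export its products. TFEB, TFE3 and MITF bind a short palindromic element, the CLEAR element, near the start of many lysosomal genes and can raise them together. Macrophages are rich in lysosomes because they digest what they engulf.

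All 40 genes were well expressed in both libraries, and 33 of them lay within 1.5-fold between WT and T403A. At 1.5-fold, with a counting interval that excluded 1, 5 were higher in T403A (Atp6v0a1, Mcoln1, Gpnmb, Sgsh and Smpd1) and 2 were lower (Npc2 and Mitf). By the same rule 13.5% of the 11199 measured genes (summed count 20 or more over both libraries) were higher and 10.8% lower. Among the 8182 genes with a mean of 10 CPM or more, a range that holds every member, 8.30% were higher and 10.6% lower. The members' 12.5% higher and 5% lower are near these shares and are no result about the list. The members did lean upward by small amounts. The median log2 ratio was 0.19 for the 40 members and 0.01 for all measured genes, and 29 of 40 members (72.5%) had a ratio above 1, against 51.2% of all measured genes and 46.9% of those at 10 CPM or more. Hydrolases had the highest class median and the transcription factors the lowest.

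One library stood for each genotype, so no difference has a replicate check and no p-value is given. The statements compare these 2 libraries, not the genotypes. Intervals are exact 95% Clopper-Pearson intervals on the counts of both libraries and cover counting error only. Where counts are very high, as for Psap and Gpnmb, they are narrow and say nothing about how cultures vary. The WT library held 16033032 counts and the T403A library 18658381. Levels between libraries are CPM (counts scaled to a common library size) after TMM scaling, which sets the bulk of genes to equal levels. Scaling by library totals instead raised every log2 ratio by 0.19, for the members and for all other genes alike. With it 12 members were higher and none lower, against backgrounds of 20.4% higher and 7.95% lower, and 35 of 40 had a ratio above 1, against a background of 69.1%. The same 5 members were higher under both scalings. Of the 11 members with a TMM ratio below 1, Atp6v0e, Atp6v1b2, Atp6v1h, Atp6ap2, Lamp1 and Gla lay above 1 with library totals. The members' median stood 0.18 above that of all measured genes under either scaling.

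Of the cell type marker lists, that of macrophages had the largest sum in both libraries. The 8 macrophage markers summed to 50360 CPM in WT against 38930 CPM in T403A, of which Lyz2 alone made 36620 and 29804 CPM. Of the 8, 4 were lower in T403A (Adgre1, Fcgr1, Itgam and Cd14), against 10.8% of all measured genes. None was higher (against 13.5%), and Csf1r, Cd68, Mertk and Lyz2 were not called. Of the lymphocyte markers, Cd3e, Ncr1 and Cd8a were at 0 in both, Cd79a had 2 and 6 counts, and Ms4a1 had 1 and 0. The 5 mast cell and basophil markers summed to 0.2 and 0.602 CPM, the 6 dendritic cell markers to 2.47 and 1.05, the 6 stromal markers to 3.2 and 2.51, and the 6 erythroid and megakaryocyte markers to 1.07 and 1.153. The 8 neutrophil markers summed to 8.87 and 11.5 CPM, with Elane at 0 in both libraries. Of the 5 measured, S100a9 (28 and 77 counts) and Ltf (25 and 64 counts) were called higher in T403A and Camp (22 and 10 counts) lower. The shares over all measured genes were 13.5% higher and 10.8% lower.

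**Figure D1:**
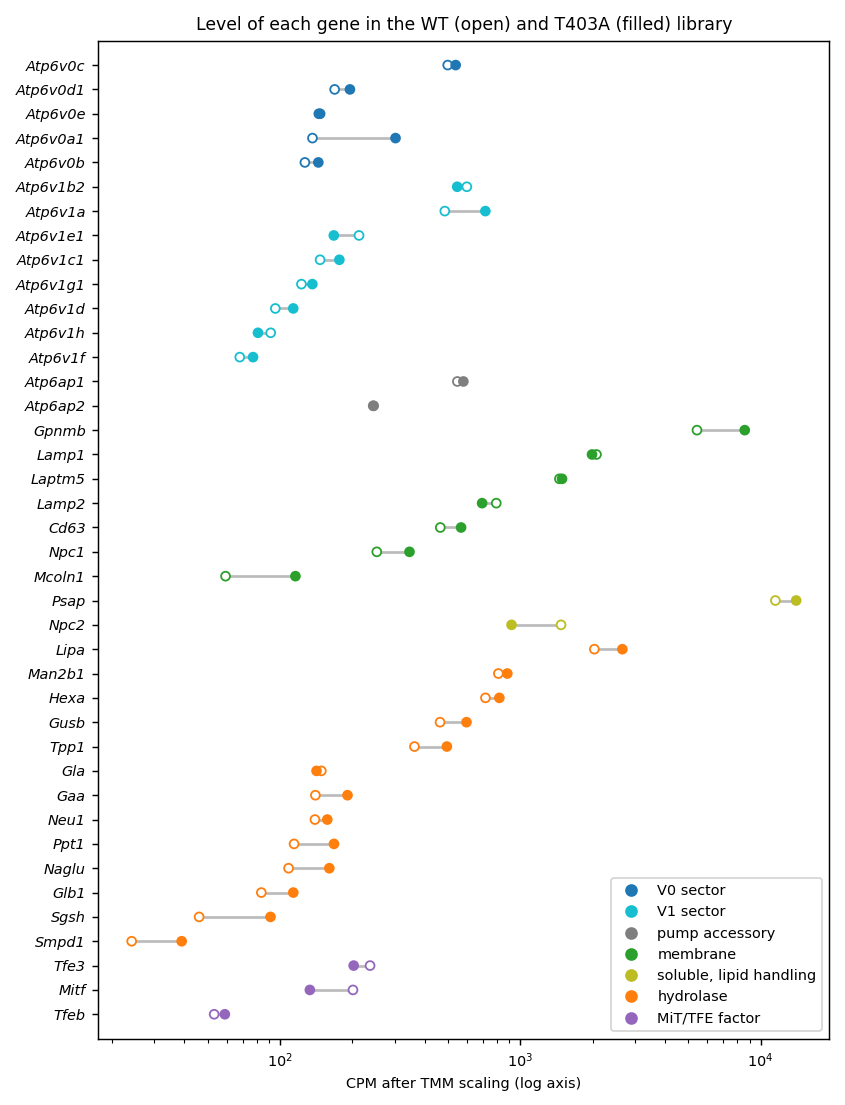
Level of each of the 40 genes in the WT library (open circles) and the T403A library (filled circles), in CPM after TMM scaling on a log axis, coloured and grouped by class and ordered by the WT level within a class. Psap and Gpnmb lie farthest right, and for most genes the circles lie close together.

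Short E-box sequences near the transcription start are shown first, since the MiT/TFE factors read them. Other bHLH (basic helix-loop-helix) factors bind the E-box CACGTG too, so a match is not particular to the MiT/TFE factors. RefSeq promoter windows (GRCm38.p6, 250 bases before to 50 after the start) were at hand for 35 of the 40 genes. The hexamer CACGTG was found in 11 of these 35 genes, and in each of the 11 it had a T before it or an A after it (TCACGTG or CACGTGA, which are one motif on opposite strands). In all, 31.4% of the members held the 7-base motif, against 4.29% of all 27025 genes with a window and 7.23% of the 8938 measured ones. For the hexamer, held by the same members, these background shares were 8.09% and 12.1%. Every TCACGTG or CACGTGA contains CACGTG, so the counts overlap. The longer CLEAR palindrome, TCACGTGA with a further G before and C after it, was in none of the members' windows. It was in 0.370% of all genes and 0.85% of measured ones. A match is only a run of letters and does not show that a factor binds.

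The 11 genes had 17 matches, of which 12 began in the 100 bases before the start. Mcoln1 (a lysosomal calcium channel) and Lamp1 (the most abundant LAMP) are shown with the 90 bases before their RefSeq starts, because they hold 2 and 4 matches and differ in their ratio. Capitals mark the motif, written 5′ to 3′ on the gene's strand. GENCODE M21, used for gene positions elsewhere in the text, begins Mcoln1 at base 3500457, inside the printed stretch, so by that annotation its second match lies within the gene.
Mcoln1 (chr8:3500429-3500518, plus strand): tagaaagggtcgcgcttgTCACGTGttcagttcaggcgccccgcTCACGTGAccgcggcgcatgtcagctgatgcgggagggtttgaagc
Lamp1 (chr8:13159071-13159160, plus strand): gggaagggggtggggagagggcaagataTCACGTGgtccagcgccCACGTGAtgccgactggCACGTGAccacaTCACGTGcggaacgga
Mcoln1 was 1.95-fold higher in T403A, while Lamp1, with more matches, had a ratio of 0.958 (1.09 with library totals).

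Of the other genes with a match, 4 are shown with 30 bases each: the member with the highest ratio among the 11 (Sgsh), Naglu and Atp6v1a just under 1.5-fold, and Gla with the lowest. The palindrome TCACGTGA was found in 5 members, Atp6v0d1, Atp6v0e, Atp6v1a, Gla and Mcoln1. That is 14.3% of the members with a window, against 1.12% of all genes and 2.25% of measured ones. GENCODE M21 begins Naglu at base 101070012 and Atp6v1a, on the minus strand, at base 44139705, so by that annotation their matches lie within the gene. The Sgsh match spans its M21 start (119355536), and the printed Gla match lies before its own (134601125).
Sgsh (chr11:119355521-119355550, minus strand): ggcctgccgtgCACGTGAccgtggggagcg
Naglu (chr11:101070009-101070038, plus strand): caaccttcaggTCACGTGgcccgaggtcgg
Atp6v1a (chr16:44139373-44139402, minus strand): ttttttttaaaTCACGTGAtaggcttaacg
Gla (chrX:134601182-134601211, minus strand): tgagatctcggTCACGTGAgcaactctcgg

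Ratios of members with and without the motif overlapped. Among the 11 genes with it, 8 had a ratio above 1, 2 were called higher (Mcoln1 and Sgsh) and none lower, with a median log2 ratio of 0.44. Among the 24 without it, 18 had a ratio above 1, 3 were called higher and 2 lower, with a median of 0.18. Over all 646 measured genes with the 7-base motif the median log2 ratio was 0.02, against 0.01 for all 8938 measured genes with a window, and 11.5% were higher against 13.3%.

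**Figure D2:**
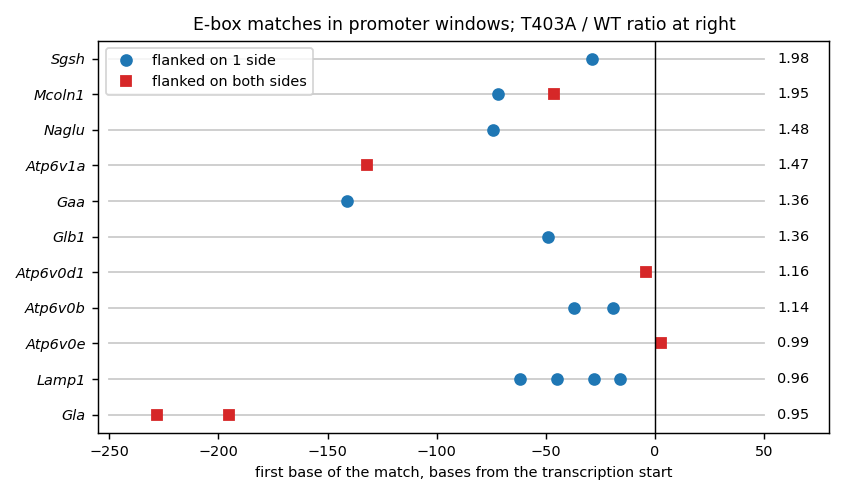
Position of each match in the promoter windows of the 11 genes that hold one, in bases from the RefSeq transcription start, with blue circles for matches flanked on 1 side and red squares for those flanked on both sides. The T403A to WT ratio at the right (TMM) runs from 1.98 for Sgsh to 0.955 for Gla (1.09 with library totals). The 4 genes with more than 1 match are Mcoln1 (ratio 1.95), Atp6v0b (1.14), Lamp1 (0.958) and Gla.

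In the membrane sector of the pump, Atp6v0a1 was the 1 gene that stood apart. It encodes an isoform of the large a subunit that couples proton flow to rotation (chromosome 11, 101009452 to 101063719, GRCm38, plus strand). It was at 136 CPM in WT against 302 CPM in T403A, 2.22-fold higher (2.11 to 2.33). The other V0 genes lay close to 1. Atp6v0c, the proteolipid of the rotating ring, was at 499 and 538 CPM (ratio 1.08), and Atp6v0d1, the subunit that joins the ring to the stalk, at 169 and 195 CPM (1.16). The minor ring protein gene Atp6v0b was at 127 and 144 CPM (1.14). Atp6v0e, a small membrane subunit, was lowest with 147 CPM in WT against 145 CPM in T403A (0.988, 0.934 to 1.04). Annotated pseudogenes resemble Atp6v0c, and how reads shared with them were counted is not given in the sources used here.

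Other isoforms of the a subunit did not follow Atp6v0a1. Tcirg1, the a3 isoform of osteoclasts and macrophages, was at 784 CPM in WT against 781 CPM in T403A, and Atp6v0a2 was at 73.0 and 51.6 CPM. Per length, in TPM (a length-corrected level, used to compare genes within a library), Tcirg1 made up 84.7% of the a subunit transcripts in WT and 76.5% in T403A. Atp6v0a1 made up 10.1% and 20.2%, Atp6v0a2 5.24% and 3.36%, and Atp6v0a4, an isoform known from kidney, had no counts. The Atp6v0a1 to Tcirg1 count ratio was 2.23-fold higher in T403A (2.11 to 2.35), a value that no scaling factor enters. Tcirg1 thus remained the most abundant isoform in both libraries.

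The V1 sector showed no gene past 1.5-fold, where 13.5% of all measured genes were called higher and 10.8% lower. Its 8 genes ran from 0.785 for Atp6v1e1, part of the peripheral stalk, at 213 CPM in WT against 167 CPM in T403A, to 1.47 for Atp6v1a. Atp6v1a encodes the catalytic A subunit and was at 485 and 715 CPM (1.43 to 1.52), just inside the threshold. Atp6v1b2, its partner in the catalytic head, was at 599 CPM in WT against 546 CPM in T403A (0.912, 0.887 to 0.938). With library totals the Atp6v1b2 ratio was 1.04, so its direction depends on the scaling. The A to B subunit count ratio, which no scaling factor enters, was 1.62-fold higher in T403A (1.55 to 1.68).

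The remaining V1 genes had ratios between 0.885 and 1.20. Atp6v1g1, the abundant stalk subunit, was at 123 CPM in WT against 136 in T403A (1.11). The central stalk gene Atp6v1d was at 95.6 and 113 CPM (1.19), Atp6v1c1, the subunit that links stalk and head, at 147 and 177 (1.20), and Atp6v1f at 68.0 and 77.2 (1.14). Atp6v1h, a regulatory subunit, was at 91.5 and 80.9 CPM (0.885). Among the accessory proteins, Atp6ap1 was at 547 and 579 CPM and Atp6ap2, the prorenin receptor, at 245 and 244 CPM. Per length Atp6ap1 was the most abundant pump gene, at 545 TPM in WT, and Atp6v1h the least, at 28.3 TPM. The deposited length of Atp6v1h is 9746 bases, the union of its annotated exons, so its TPM is a low estimate if the macrophage transcript is shorter.

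Over the 15 pump genes the median log2 ratio was 0.15, with 10 ratios above 1 (66.7%, against 51.2% of all measured genes). Pump genes took 0.345% of all counts in WT (95% Wilson interval 0.343 to 0.348) and 0.445% in T403A (0.442 to 0.448). Shares of counts carry no TMM scaling and so hold the shift between the scalings described above.

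**Figure D3:**
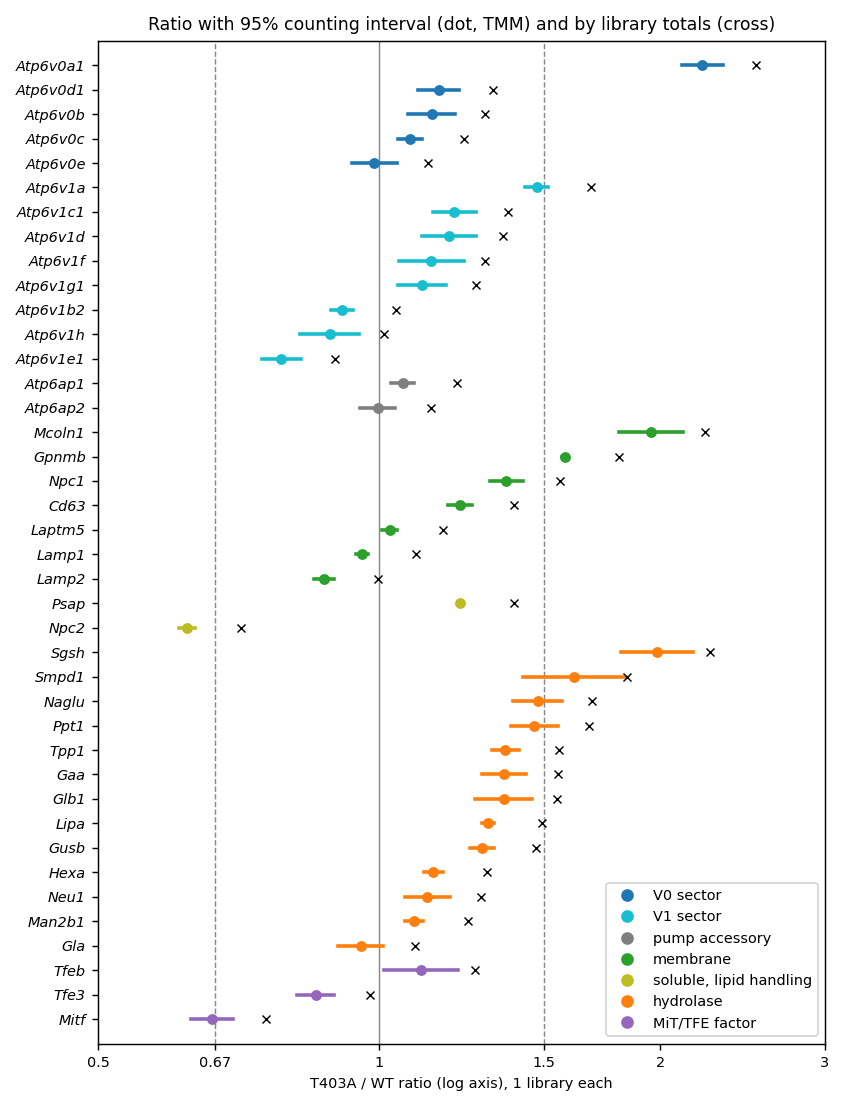
Ratio of T403A to WT for each gene on a log axis, as a dot with its 95% counting interval (TMM) and as a cross (library totals), with dashed lines at 1.5-fold in each direction. Atp6v0a1, Mcoln1, Gpnmb, Sgsh and Smpd1 lie right of the upper line with both scalings, and the dots of Npc2 and Mitf, though not their crosses, lie left of the lower one.

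Of 10 listed genes for other isoforms of pump subunits, 4 were measured, and the rest had few or no counts. The measured ones were Tcirg1 and Atp6v0a2, described above, with Atp6v0d2 and Atp6v1g2. Of them 1 was higher (25%, against 13.5% of all measured genes) and 1 lower (25%, against 10.8%). Atp6v0d2, the d isoform of osteoclasts and some macrophages, was at 12.7 CPM in WT against 26.4 CPM in T403A, 2.08-fold higher (1.76 to 2.46), yet Atp6v0d1 still made 91.8% of d subunit transcripts per length in T403A. Atp6v1g2, a G isoform known from neurons, was at 9.47 and 4.81 CPM, 1.97-fold lower (1.51 to 2.57). Atp6v1b1, Atp6v1c2 and Atp6v1e2 had no counts in either library. A count of 0 allows up to 3 counts, or 0.2 CPM in WT against 0.150 CPM in T403A. The 8 osteoclast markers, a list that includes Atp6v0d2, summed to 99.5 CPM in WT against 147 CPM in T403A. Of the 6 measured in this list 3 were higher, Itgb3 (1.00 and 11.3 CPM), Ctsk (5.87 and 9.68 CPM) and Atp6v0d2, against 13.5% of all measured genes. In the other direction 1 was lower, Acp5 (11.5 and 1.91 CPM), against 10.8%. The osteoclast receptor gene Calcr was at 0 in both, and the fusion gene Ocstamp had 2 counts in WT and 0 in T403A. Nfatc1, the largest value in the sum, was at 66.7 and 96.4 CPM (1.45) and was not called. Dcstamp, also not called, had 24 and 20 counts. The part of these genes in the pump values was not tested.

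**Figure D4:**
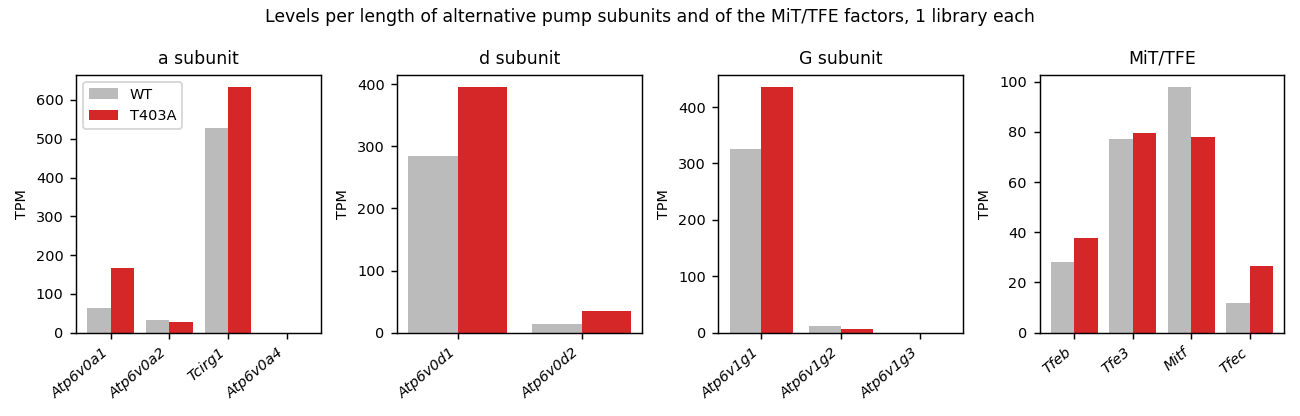
TPM of alternative a, d and G subunit genes and of the MiT/TFE family in the WT (grey) and T403A (red) library, each panel with its own axis from 0. TPM carries no TMM scaling, and a gene with equal CPM stands 1.20-fold higher in T403A here, so the bars compare genes within a library: Tcirg1, Atp6v0d1 and Atp6v1g1 are the main isoforms in both.

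Genes for assembling the pump went both ways. The median log2 ratio of the 10 measured was 0.18. Of them 2 were higher (20%, against 13.5% of all measured genes), 1 was lower (10%, against 10.8%) and 7 lay in between. The V-ATPase assembly factor RAVE has the proteins of Dmxl1, Dmxl2, Wdr7 and Rogdi as its mammalian counterparts. Wdr7 was at 68.5 CPM in WT against 152 CPM in T403A, 2.21-fold higher (2.06 to 2.38). Its partner Dmxl2 was at 225 and 103 CPM, 2.19-fold lower (2.07 to 2.32). Rogdi was at 11.6 and 19.0 CPM (1.63-fold higher), and Dmxl1 was at 113 and 128 CPM (1.13). Partners in one complex thus differed in direction.

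Among the 7 membrane protein genes, the channel gene Mcoln1 and the glycoprotein gene Gpnmb were higher in T403A (28.6%, against 13.5% of all measured genes). None was lower (against 10.8%), and the other 5 lay within 1.5-fold. Mcoln1 (chromosome 8, 3500457 to 3515232, plus strand) encodes TRPML1, which releases calcium from the lysosome. It was at 59.3 CPM in WT against 116 CPM in T403A, 1.95-fold higher (1.81 to 2.11). Gpnmb (chromosome 6, 49036546 to 49070929, plus strand), a transmembrane glycoprotein of lipid-laden and phagocytic macrophages and a known MITF target, was at 5434 and 8588 CPM. Its ratio was 1.58 (1.57 to 1.59), and it alone took 0.508% of WT counts against 0.918% of T403A counts.

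The LAMPs, which coat the inner face of the membrane, differed little. Lamp1 was at 2074 CPM in WT against 1988 CPM in T403A (0.958), and Lamp2 at 794 and 693 CPM (0.873, 0.852 to 0.895). Exons of Lamp1 overlap those of Grtp1 on the opposite strand over 9.3% of their bases, but Grtp1 itself had 9 and 55 counts. Laptm5, a lysosomal protein of blood cells, was at 1454 and 1491 CPM (1.03). Cd63, a tetraspanin of late endosomes, was at 464 and 567 CPM (1.22), with a pseudogene copy annotated elsewhere.

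The cholesterol exporters had ratios on opposite sides of 1. Npc1, the membrane protein that passes cholesterol out of the lysosome, was at 253 CPM in WT against 346 CPM in T403A (1.37, 1.31 to 1.42), short of 1.5-fold. Npc2, the soluble carrier that hands cholesterol to it, was at 1477 CPM in WT against 919 CPM in T403A, 1.61-fold lower (1.58 to 1.64). Npc2 lies on chromosome 12 (84754562 to 84773152, minus strand). The Npc1 to Npc2 count ratio was 2.20-fold higher in T403A (2.10 to 2.30). With library totals Npc2 had a ratio of 0.711 and was no longer called. Npc2 was still the lowest ratio of the 40 genes.

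Of 23 measured genes for other lysosomal membrane proteins, 5 were higher in T403A (21.7%, against 13.5% of all measured genes), 2 were lower (8.7%, against 10.8%) and 16 were neither. Their median log2 ratio was 0.32. The other mucolipin channels went the way of Mcoln1. Mcoln3 was at 2.73 CPM in WT against 20.1 CPM in T403A, 7.36-fold higher (5.33 to 10.4). Mcoln2, named after its values were seen, was at 61.9 and 141 CPM, 2.28-fold higher. All 3 mucolipin genes were thus higher. The paired two-pore channel genes differed in direction, with Tpcn2 at 138 and 55.1 CPM, 2.51-fold lower (2.33 to 2.70), and Tpcn1, named after its values were seen, at 92.8 and 164 CPM (1.77-fold higher). Laptm4b, a relative of Laptm5, was at 3.2 and 8.32 CPM (2.60-fold higher). Ctns, the cystine exporter, also named after its values were seen, was at 47.3 and 74.4 CPM (1.57-fold higher). Slc15a3, an endolysosomal peptide transporter, was at 484 CPM in WT against 122 CPM in T403A, 3.98-fold lower (3.8 to 4.17). Exons of Tmem132a overlap 28.1% of its exon bases on the opposite strand. The members' own median over 7 membrane genes was 0.29.

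Hydrolases leaned upward as a class, mostly by less than 1.5-fold. Of the 13, 12 had intervals above 1, as did 3506 of the 11199 measured genes, and 2 passed 1.5-fold (15.4%, against 13.5% of all measured genes). Their median log2 ratio was 0.44 (1.36-fold). They took 0.486% of WT counts (0.482 to 0.489) against 0.696% of T403A counts (0.692 to 0.700).

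Among the enzymes that degrade heparan sulfate, Sgsh was higher. Sgsh, the sulfamidase that removes its N-linked sulfate (chromosome 11, 119343425 to 119355536, minus strand), was at 46.1 CPM in WT against 91.3 CPM in T403A, 1.98-fold higher (1.81 to 2.17). Card14 overlaps 21.6% of its exon bases on the opposite strand and had 7 and 26 counts. Naglu, another enzyme that acts on this chain, was at 109 and 160 CPM (1.48, 1.39 to 1.57), just under the threshold. Gusb, the beta-glucuronidase, was at 463 and 597 CPM (1.29).

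Lipid-degrading enzymes were led by Smpd1. This acid sphingomyelinase gene (chromosome 7, 105554360 to 105558389, plus strand) was at 24.1 CPM in WT against 39.0 CPM in T403A, 1.61-fold higher (1.42 to 1.83), and it had the lowest CPM of the 40 genes in both libraries. Ppt1, which strips palmitate from proteins, was at 114 and 168 CPM (1.47, 1.38 to 1.55). Its exons overlap those of the far more abundant Cap1 on the opposite strand over 3.5% of their bases. Lipa, the acid lipase that frees cholesterol from its esters, was at 2065 TPM in WT by its deposited length of 2969 bases. Its annotated exons cover 6780 bases, with which its TPM would be lower, so its rank among the hydrolases depends on the length used. It was at 2033 and 2658 CPM (1.31, 1.29 to 1.33).

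The glycosidases lay within 1.5-fold. Glb1, the beta-galactosidase, was at 83.6 CPM in WT against 114 CPM in T403A (1.36), and Gaa, which degrades glycogen, at 140 and 191 CPM (1.36). Exons of Tmppe overlap 5.5% of the Glb1 exon bases on the same strand. Hexa, whose product forms beta-hexosaminidase, was at 716 and 818 CPM (1.14), with Tmem202 on the opposite strand over 12.8% of its exon bases. Man2b1, the alpha-mannosidase, was at 810 and 883 CPM (1.09), and the sialidase Neu1 at 140 and 157 CPM (1.13). Gla, the alpha-galactosidase, was the 1 hydrolase with a TMM ratio below 1, at 149 and 142 CPM (0.955, or 1.09 with library totals), and its interval of 0.903 to 1.01 held 1. The peptidase Tpp1 was at 363 and 495 CPM (1.36, 1.32 to 1.41).

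Psap was the most abundant of the 40 genes. It encodes the precursor of the saposins, small proteins that present lipids to the hydrolases. It was at 11522 CPM in WT against 14059 CPM in T403A (1.22, 1.21 to 1.23), or 12662 TPM in WT. Together the 40 genes took 3.08% of WT counts (3.07 to 3.09) against 4.26% of T403A counts (4.25 to 4.27). Without Psap and Gpnmb the shares were 1.49% and 1.84%. After TMM scaling the 40 genes summed to 32906 CPM in WT against 39835 CPM in T403A, a smaller relative difference than that of the shares.

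**Figure D5:**
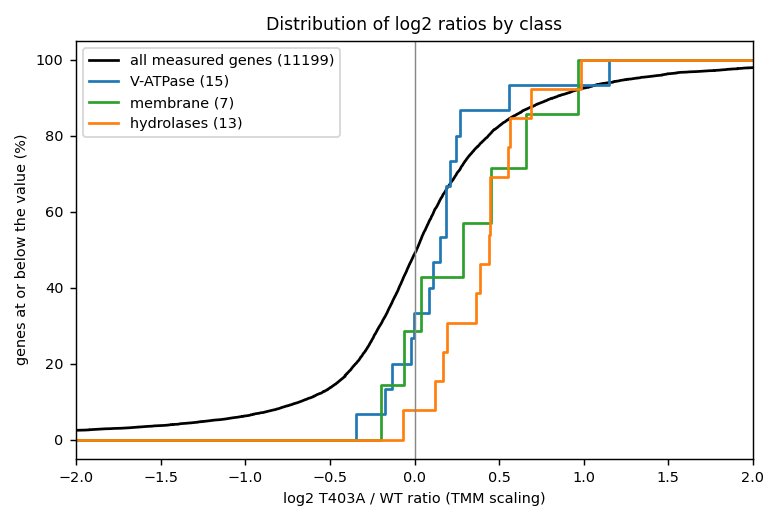
Cumulative share of genes (percent, vertical axis) at or below each log2 T403A to WT ratio (horizontal axis, TMM) for the 15 pump genes, 7 membrane genes, 13 hydrolases and all 11199 measured genes, with values beyond the axis not drawn. Up to its median of 0.44 the hydrolase line lies right of the line of all genes, whose median is 0.01.

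The other 39 soluble lysosomal genes, which include hydrolases, their helpers and the receptors that sort them, had a median log2 ratio of 0.12. Of them 3 were higher (7.69%, against 13.5% of all measured genes), 5 were lower (12.8%, against 10.8%) and 31 were neither. Arsb, which removes sulfate from dermatan sulfate, was at 5.27 CPM in WT against 12.2 CPM in T403A (2.31-fold higher, 1.79 to 3.02), and the sorting receptor gene Sort1 at 162 and 268 CPM (1.65-fold higher). Acp5, the tartrate-resistant phosphatase of osteoclasts and macrophages, was 6.02-fold lower (4.21 to 8.79). Plbd1, a phospholipase B-like protein gene, was at 5.80 and 2.21 CPM (2.63-fold lower, 1.81 to 3.87). M6pr, the cation-dependent mannose 6-phosphate receptor that delivers hydrolases to the lysosome, was named after its values were seen. It was at 696 and 383 CPM, 1.82-fold lower (1.76 to 1.87). The remaining calls, likewise named after their values were seen, were the acid phosphatase gene Acp2 (509 and 242 CPM) and Rnaset2a (3.27 and 2.11 CPM), both lower, and the beta-mannosidase gene Manba (43.5 and 66.7 CPM), which was higher.

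Of the 3 listed transcription factors, none was called higher (against 13.5% of all measured genes) and Mitf was called lower (33.3%, against 10.8%). Tfeb was at 53.2 CPM in WT against 58.9 CPM in T403A (1.11, 1.01 to 1.21). Tfe3 was at 237 and 202 CPM (0.855, 0.817 to 0.894). Mitf (chromosome 6, 97807052 to 98021349, plus strand) was at 201 CPM in WT against 133 CPM in T403A, 1.51-fold lower (1.43 to 1.59). This value is at the edge of the threshold, and with library totals the ratio was 0.756 and was not called. The activity of these factors is set largely by phosphorylation and entry into the nucleus, which read counts do not measure.

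Per length, Mitf ranked first among the MiT/TFE genes in WT at 97.9 TPM, followed by Tfe3 at 77.2 and Tfeb at 28.3. In T403A Tfe3 (79.4 TPM) and Mitf (78.0 TPM) were nearly equal and Tfeb was at 37.7 TPM. The order of Mitf and Tfe3 depends on their deposited lengths, 6196 and 9261 bases, each the union of annotated exons. By CPM Tfe3 was above Mitf in both libraries, at 237 against 201 CPM in WT and 202 against 133 CPM in T403A. The Mitf to Tfeb count ratio fell to 0.597 of its WT value in T403A (0.538 to 0.664). Tfec, the remaining family member, is rich in macrophages and was added after the values of the list had been seen. It was at 22.3 CPM in WT against 41.1 CPM in T403A, 1.85-fold higher (1.62 to 2.10), and at 12.0 TPM in WT was the least abundant of the 4.

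Genes that connect the lysosome to the growth kinase mTORC1, which holds TFEB in the cytosol, are a further list. Of 23 measured, 15 had a ratio above 1 (65.2%, against 51.2% of all measured genes), 4 were called higher (17.4%, against 13.5%) and none lower (against 10.8%). The list's median log2 ratio was 0.21. Rragd, a Rag GTPase gene known as a MiT/TFE target, was at 5.73 CPM in WT against 19.2 CPM in T403A, 3.34-fold higher (2.64 to 4.27). Fnip2, a folliculin partner gene, was at 285 and 546 CPM, 1.91-fold higher (1.85 to 1.98). The other higher genes, named after their values were seen, were Flcn, which encodes folliculin, at 96.1 and 152 CPM (1.58-fold) and Nprl2 at 10.1 and 16.8 CPM (1.67-fold).

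Of 23 measured autophagy genes, 1 was called higher (4.35%, against 13.5% of all measured genes) and none lower (against 10.8%). Among the rest were small differences both ways, since over the whole list 10 intervals lay above 1, 7 lay below and 6 held it. The median log2 ratio was 0.09. Tecpr1, which tethers autophagosomes to lysosomes, was the gene called higher, at 88.9 CPM in WT against 373 CPM in T403A, 4.19-fold higher (3.95 to 4.45). Over all 122 measured genes of the related lists, 13.1% were higher and 7.38% lower, close to the 13.5% and 10.8% of all measured genes.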

How the data were processed

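The authors deposited 1 table of read counts per Ensembl gene with a gene length, 1 column per library. GRCm38, HISAT2, cutadapt 1.15, DESeq 1.30.0 and HTSeq 0.9.1 appear in the submitters' processing notes. The annotation release, the strand setting and what each tool did were not given in the sources used here. Without a known strand setting, reads where genes overlap on opposite strands could belong to either. Other values (the gene length in bases) were deposited in the same table.

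Columns were matched to samples by title. Symbols were found for 21969 of 22060 genes; Tmem55a and Tmem55b were not matched. Positions and exon overlaps come from GENCODE M21 (GRCm38), whose exon unions equal the deposited length for 96.5% of genes. Counts were scaled with TMM (edgeR 4.0.16, R 4.3.3). CPM and TPM were computed from the deposited counts. Ratios are of scaled counts, with exact intervals (scipy 1.17.1). On simulated counts these intervals held the true ratio less often than their nominal level once variation between cultures was added, so they cover counting error only. Log2 ratios in medians use a prior count of 0.5. Ratios of gene pairs carry an exact conditional interval or, for very large counts, a log-normal one. Library totals, DESeq2 1.42.0 size factors, other filters, thresholds and windows were tried. The members, lists and motifs were chosen with earlier results of these data known.

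Every member was accounted for. Values are given for called members, the MiT/TFE factors, the most abundant and the extreme members of each class, and for the 2 highest and 2 lowest called genes of each related list.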

Additional observations from a re-analysis of the deposited data

How the results depend on the processing

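Scaling by library totals moved the most values. It gave 12 higher and 0 lower members in place of 5 and 2, and median log2 ratios of 0.38 for the members, 0.34 for the pump, 0.48 for the membrane proteins and 0.58 for the soluble proteins, as its construction adds 0.19 to every log2 ratio. DESeq2 size factors and TMM on genes with 100 or more counts in sum gave 5 and 2 members. Both left each median between the median lower and the median upper bound of its genes' counting intervals. A threshold of 2-fold left 1 higher and 0 lower members, and one midway between 1-fold and 1.5-fold gave 14 and 3. A prior count of 5, run for the 4 medians only, left each between the same bounds. No count filter did the same for these medians and left 5 higher and 2 lower members. Without mitochondrial transcripts the members' share was 3.14% in WT and 4.37% in T403A. In the 150 bases nearest to the start, 8 members in place of 11 held the E-box. No paired analysis was possible because each genotype has 1 library. With 1 library each, variation between cultures is not measured, and depth limits only the rarest genes named.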
